A study of Rattus norvegicus with 9 samples.

Results

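The Rab small GTPases of rat alveolar macrophages, which engulf particles and microbes in the air spaces, were followed after nitrogen mustard. Members were all genes of the deposited table whose symbol is Rab with a number and at most 1 letter and 1 further digit, so that Rab effectors and regulators were left out. This gave 53 genes of 17109, of which 45 passed the filter on low values (at least 1 FPKM, a level scaled to transcript length and library size, in at least 3 of 9 libraries), as did 9885 genes in all. Male Wistar rats received PBS or nitrogen mustard (NM, mechlorethamine hydrochloride, 0.125 mg/kg) into the trachea. Lung massage yielded the cells, at 1 d or 28 d for NM. The 9 RNA libraries formed 3 groups of 3, PBS, NM day 1 and NM day 28 (libraries PBS, NM1d and NM28d, numbered 0 to 2), described by the submitters as biological replicates. When cells were taken after PBS, how old the rats were and whether animals were pooled is not stated in those labels, so p-values measure the spread between these libraries.

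Rab proteins are small GTPases held on membranes by a lipid tail. In the GTP-bound state each marks a compartment and recruits effectors that move, tether and fuse vesicles, while exchange factors switch Rabs on, GTPase-activating proteins switch them off and GDI extracts them from membranes. In macrophages a phagosome first carries Rab5 and then Rab7 as it matures toward fusion with lysosomes, and other Rabs serve secretion, recycling and the Golgi.

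The label alveolar macrophage was checked against its markers. Of 10 alveolar macrophage markers 9 had a row, Cd68 had a mean of at least 813 FPKM in each group while Marco was listed at 0 in all 9 libraries. Of the 8 tested, limma called Chi3l1 and Car4 higher on both days against PBS, Pparg lower at day 1 (177 ± 2.78 to 120 ± 18.3 FPKM, SD, n = 3) and Mrc1 lower at day 28 (376 ± 38.3 to 229 ± 47.2). The summed level of 15 alveolar epithelial markers ran from 244 to 415 FPKM in PBS, from 1047 to 3108 at day 1 and from 280 to 390 at day 28. The 7 neutrophil markers summed to 68.9 to 105 FPKM in PBS, 515 to 876 at day 1 and 205 to 713 at day 28, and the 5 airway epithelial markers to 1249 to 7622, 1232 to 2959 and 765 to 1188. Absolute depth was not given. Relative depth, estimated from the steps between low FPKM values, lay between 1.42 and 2.58 in PBS, 1 and 1.47 at day 1 and 1.035 and 1.125 at day 28. Low values in PBS thus rested on more fragments than at day 28, while the depths of PBS and day 1 overlapped. In bulk RNA, fewer cells of a type and less RNA per cell cannot be told apart.

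A late and an early endosomal Rab, Rab7a and Rab5c, were the most abundant members in each group, while by summed level the recycling and plasma membrane Rabs stood highest in each group mean. Rab7a, which drives fusion of late endosomes and phagosomes with lysosomes, was the most abundant member in all 3 groups (293 ± 21.9 FPKM in PBS, 237 ± 26.6 at day 1 and 362 ± 30.4 at day 28; SD, n = 3). Rab5c, an early endosome Rab, was the next in each group by mean, followed over all libraries by Rab5b, Rab8a and Rab1b. In PBS the values of Rab7a (270 to 313 FPKM) and Rab5c (210 to 303) overlapped. FPKM is a value per length, so these levels can be set side by side. Rab8a, which serves exocytosis to the plasma membrane, stood at 135 ± 12.4, 120 ± 8.69 and 134 ± 9.74 FPKM, and Rab1b, an ER-to-Golgi Rab, at 135 ± 21.1, 107 ± 8.86 and 113 ± 15.9. Values of Rab8a and Rab1b overlapped in PBS and at day 1, and at day 28 all 3 Rab8a values (127 to 145) lay above those of Rab1b (94.4 to 122). Together the 53 genes summed to 1866 to 2334 FPKM in PBS, 1758 to 1995 at day 1 and 2046 to 2298 at day 28, and the 5 highest made up 45.7%, 40.0% and 43.9% of that sum.

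Replicates lay closest for the abundant members. The median coefficient of variation within groups was 11.9% for the 13 members with a mean of 50 FPKM or more, 17.8% for the 23 between 5 and 50 and 52.7% for the 9 tested below 5. The 8 members that did not pass the filter were Rab6b, Rab33a, Rab19, Rab36, Rab3b, Rab9b, Rab10 and Rab3c. Rab10 and Rab3c were listed at 0 in all 9 libraries, and Rab6b was the highest of the 8, up to 1.44 FPKM. Rab1b was the 1 member with several rows, which shared 1 RefSeq accession and ran from 26.5 to 47.9 and from 58.9 to 113 FPKM; the treatment of reads matching both places is not stated. The Rab symbols Rab22a, Rab29, Rab37, Rab42 and Rab44 of the gene table were not analysed here.

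**Figure D1:**
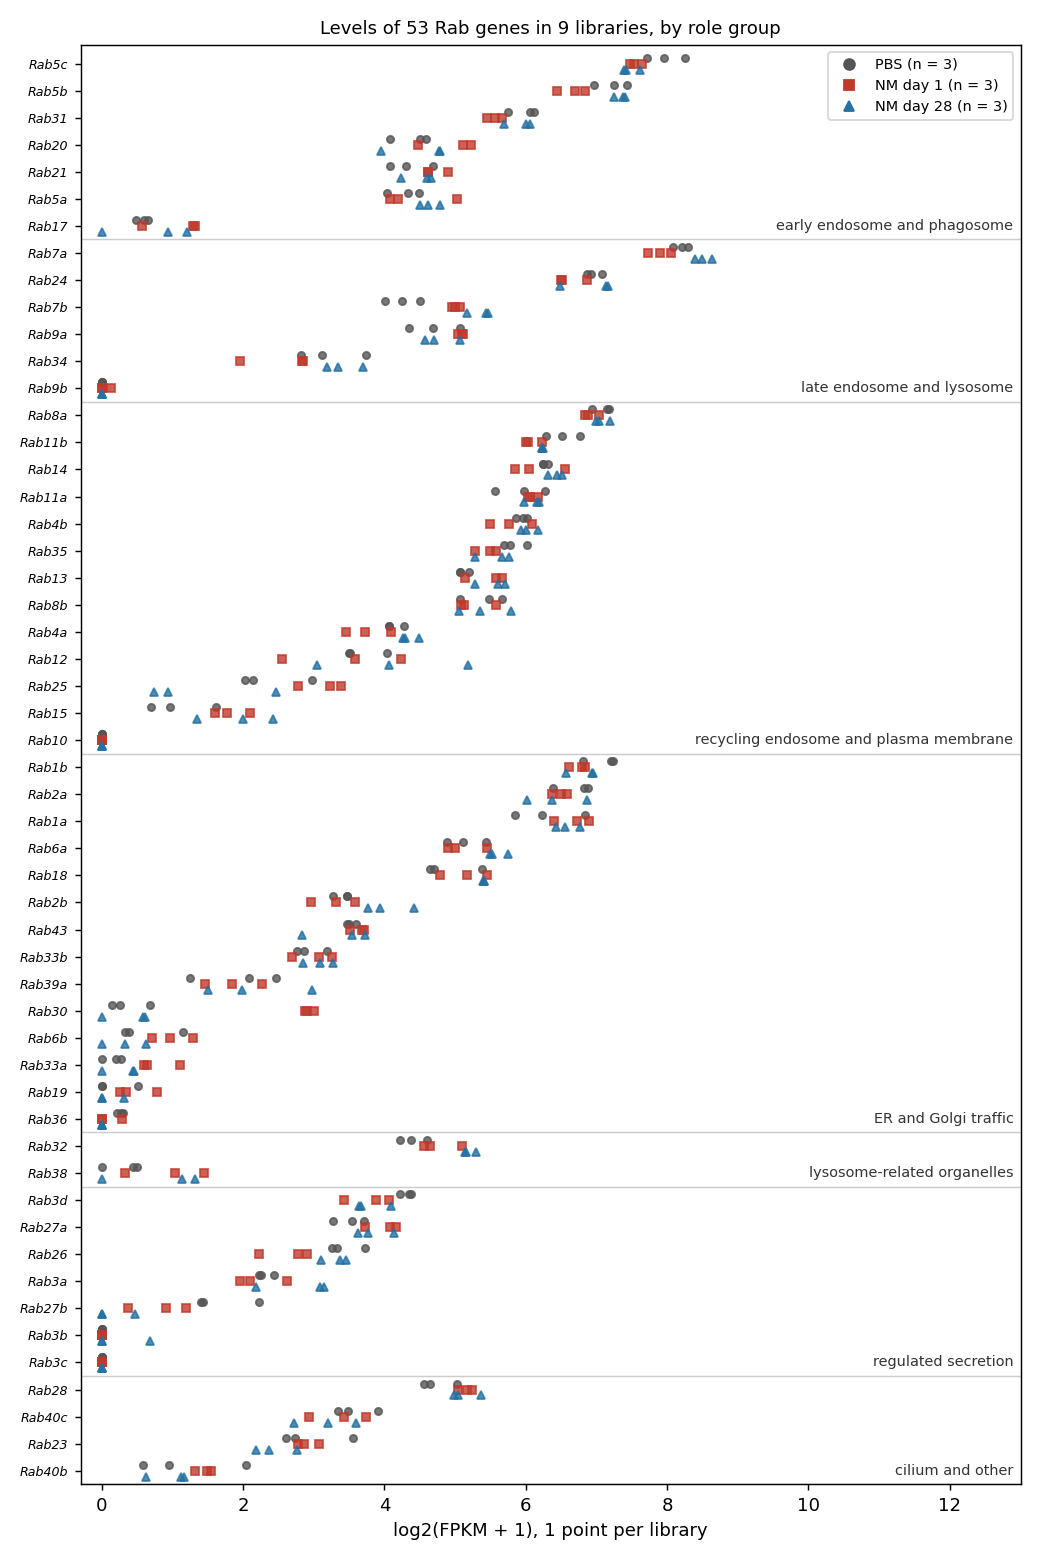
Level of each of 53 Rab genes, as log2(FPKM + 1) on the horizontal axis, with 1 point per library (PBS circles, NM day 1 squares, NM day 28 triangles; n = 3 each), genes on the vertical axis ordered by mean within role groups. By group mean Rab7a stands highest in all 3 groups, and the Rab30 points of NM day 1 stand apart from the other 6.

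At day 1 after NM, 2 Rab genes rose and 1 fell of 45 tested. Rab30, a Rab of the Golgi, and Rab7b, a late endosomal Rab of monocytes and macrophages that dampens Toll-like receptor signalling in mouse macrophages, were higher than in PBS, and Rab26, a secretory granule Rab, was lower. In limma with Benjamini-Hochberg adjustment 3 of 45 members (6.67%) thus passed an adjusted p of 0.05, against 9.86% of all 9885 genes tested. The 2 higher members (4.44%) stood against 5.28% of all genes and the 1 lower member (2.22%) against 4.58%, shares near the background. Among the members, the split of 2 against 1 became 2 against 0 after median-of-ratios scaling and 2 against 2 after quantile normalisation. An unadjusted p under 0.05 was reached by 14 of 45 members and by 25.3% of all genes. Values of the 2 groups did not overlap for 13 of 45 members (28.9%) and for 33.3% of all genes, with 4 members higher (15.2% of all genes) and 9 lower (18.1% of all genes). Fitted differences were above 0 in 20 of 45 members (44.4%) and in 46.0% of all genes. The median log2 fold change was -0.08 over the members and -0.04 over all genes.

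Rab30 was near 0 in both other groups. It stood at 0.109, 0.605 and 0.198 FPKM in PBS, at 6.49, 7.05 and 6.31 at day 1 and at 0.5243, 0 and 0.5003 at day 28. The 3 day 1 libraries were all higher than the other 6, and PBS and day 28 overlapped. The log2 fold change of log2(FPKM + 1) was 2.56 ± 0.27 (SE) at day 1 against PBS (adjusted p = 0.000153), -2.53 ± 0.27 at day 28 against day 1 (adjusted p = 0.000247) and 0.03 ± 0.27 at day 28 against PBS (adjusted p = 0.96). The first pair of calls passed in 20 of 20 alternatives, with the rise between 1.13 at a pseudocount of 5 and 4.25 at a pseudocount of 0.1. Rab30 passed the filter on low values through the day 1 libraries alone, as the 1 such member, so that it had to differ, and its p-values are given with that limit. Some markers of other cells were also highest at day 1. By group mean, the summed airway epithelial, monocyte, erythroid and B cell markers were instead highest in PBS. Besides the summed alveolar epithelial and neutrophil markers above, 4 of 8 monocyte markers tested were called higher and 1 lower at day 1 against PBS, although their sum, which S100a4 leads, overlapped between the groups (1329 to 2244, 1399 to 1750 and 763 to 1562 FPKM). Ccr2, the receptor that draws monocytes into tissue, was listed at 0 in all PBS libraries and stood at 3.33 to 9.25 FPKM at day 1 and 0 to 0.638 at day 28. Plac8 stood at 1.57 to 3.29, 42.1 to 64.4 and 0 to 3.73 FPKM and Vcan at 0.799 to 3.11, 10.4 to 15.4 and 0.641 to 1.69. Cd2, 1 of 4 T cell markers tested, and Plvap, 1 of 2 of endothelium, were also called higher at day 1, against 5.28% of all genes. The other markers tested of these lists were not called at day 1. Lck, of T cells, had a mean of 12.4 FPKM in PBS and 9.76 at day 1, and Pecam1, of endothelium, of 37.9 and 40.2. Ccr2 and Plvap, like Rab30, passed the filter through the day 1 libraries alone, so that both had to differ. The part of these cells in Rab30 was not tested.

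Rab7b was the 1 member called against PBS on both days. Its values were 21.7, 15.0 and 17.9 FPKM in PBS, 31.0, 32.5 and 29.9 at day 1 and 43.3, 34.8 and 42.5 at day 28. No values overlapped between any pair of groups, and day 28 was the highest. Against PBS the log2 fold change was 0.75 ± 0.17 (SE) at day 1 (adjusted p = 0.0185) and 1.11 ± 0.17 at day 28 (adjusted p = 0.00302), and between the days it was 0.35 ± 0.17 (adjusted p = 0.211). The day 28 call passed in 20 of 20 alternatives, while the day 1 call ended without PBS library 1 or NM1d library 0 or 1 (adjusted p up to 0.101).

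Rab26 stood at 9.01, 12.3 and 8.54 FPKM in PBS, 6.45, 3.69 and 5.83 at day 1 and 9.30, 9.96 and 7.61 at day 28. Its day 1 values lay under those of both other groups, and its log2 fold change at day 1 was -0.80 ± 0.23 (standard error, adjusted p = 0.0485). That call lay close to the threshold and passed in 5 of 20 alternatives; it ended without any single library other than NM28d library 1 (adjusted p up to 0.21). Rab5b, an early endosome Rab that fell just outside the threshold, is described with the day 28 results.

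At day 28 Rab7b and Rab32 were higher than in PBS and Rab27b was lower. Rab32 serves lysosome-related organelles and mitochondria, and in mouse macrophages it takes part in defence against bacteria in vacuoles. Rab27b docks secretory vesicles at the plasma membrane. The 3 called members of 45 (6.67%) stood against 7.04% of all genes tested, the 2 higher ones (4.44%) against 3.07% and the 1 lower one (2.22%) against 3.98%. Fitted differences were above 0 in 28 of 45 members (62.2%) and in 45.7% of all genes, with a median of 0.13 over the members and -0.04 over all genes. An unadjusted p under 0.05 was reached by 12 members and by 23.9% of all genes. The groups did not overlap for 13 of 45 members and for 27.1% of all genes, with 9 members higher (12.7% of all genes) and 4 lower (14.4% of all genes).

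Rab32 stood at 23.2, 19.8 and 17.6 FPKM in PBS, at 33.2, 23.9 and 22.6 at day 1 and at 34.6, 38.2 and 34.2 at day 28. The day 28 libraries were above all others, and the day 1 libraries overlapped PBS. The log2 fold change was 0.80 ± 0.18 (SE) at day 28 (adjusted p = 0.0226) and 0.37 ± 0.18 at day 1 (adjusted p = 0.234). The call ended without PBS library 1 or 2 or NM28d library 0 or 2 (adjusted p up to 0.0908). Its close relative Rab38, needed for lamellar bodies of type II epithelial cells in rats, was low throughout, between 0 and 0.417 FPKM in PBS, 0.259 and 1.72 at day 1 and 0 and 1.497 at day 28, and did not pass (adjusted p = 0.371 and 0.492 against PBS).

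Rab27b was low in all libraries, at 1.69, 1.64 and 3.68 FPKM in PBS, 0.877, 1.29 and 0.296 at day 1 and 0, 0 and 0.387 at day 28. All 3 PBS values lay above those of both NM groups. Rab27b passed the filter on low values mainly through PBS. All 3 PBS libraries reached 1 FPKM, day 1 reached it only at 1.29 and day 28 did not reach it. A lower level at day 28 was thus partly built in, and the p-values of Rab27b are given with that limit. The log2 fold change was -1.53 ± 0.33 (SE) at day 28 (adjusted p = 0.0177) and -0.86 ± 0.33 at day 1 (adjusted p = 0.129). The day 28 call ended without PBS library 2 or NM28d library 0 (adjusted p up to 0.0601), and its fold change ran from -3.75 to -0.51 over pseudocounts of 0.1 and 5. Relative depth was 1.42 to 2.58 in PBS against 1.035 to 1.125 at day 28, and summed airway epithelial markers were also lowest at day 28; their part in Rab27b was not tested. Rab27a, which also serves secretory granules and lysosome-related vesicles, stood higher at 12.1, 10.7 and 8.67 FPKM in PBS, 15.9, 16.9 and 12.3 at day 1 and 16.6, 11.3 and 12.6 at day 28, and it did not pass (log2 fold change 0.48 ± 0.21, standard error, adjusted p = 0.172 at day 1).

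**Figure D2:**
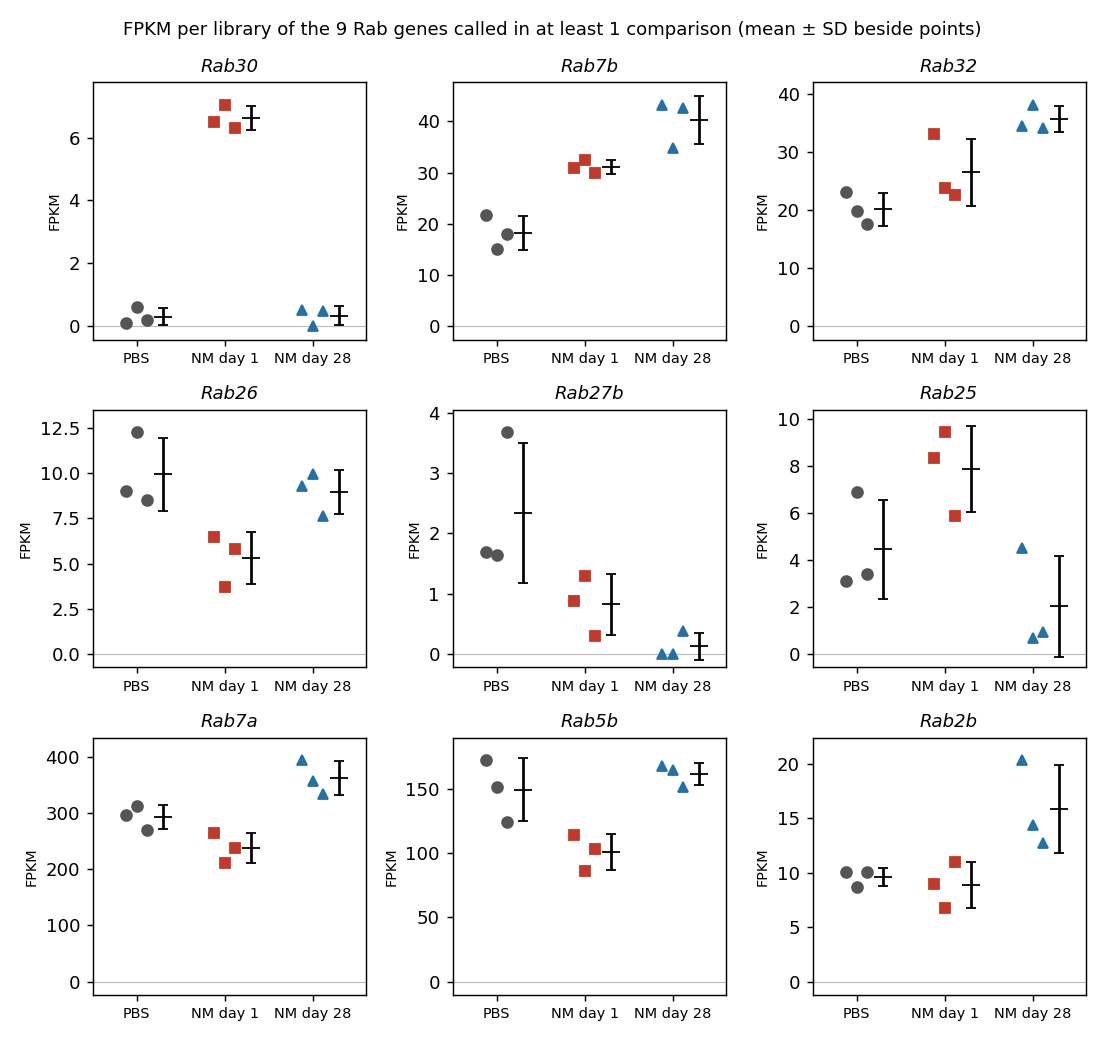
FPKM in each library (vertical axis, from 0) of the 9 Rab genes called in at least 1 comparison, by group on the horizontal axis, with the group mean ± SD (n = 3) as a bar beside the points; bars can reach below 0 where the SD exceeds the mean. Rab30 is high at day 1 alone among the 3 groups, Rab7b is higher than PBS on both days, and Rab7a, Rab5b and Rab2b are higher at day 28 than at day 1.

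Between the days, 3 Rab genes were higher at day 28 than at day 1 and 2 were lower. Rab7a, Rab5b and Rab2b, a Golgi Rab, were the higher ones, and Rab30 and Rab25, a Rab11 relative of epithelial cells, the lower ones. These 5 of 45 (11.1%) stood against 11.6% of all genes tested, the 3 higher (6.67%) against 4.75% and the 2 lower (4.44%) against 6.88%. An unadjusted p under 0.05 was reached by 11 members and by 26.9% of all genes. The groups did not overlap for 14 of 45 members (31.1%) and for 30.8% of all genes, with 10 members higher (15.1% of all genes) and 4 lower (15.7% of all genes). Fitted differences were above 0 in 28 of 45 members and in 49.6% of all genes. Since each day was set against the same PBS libraries, this contrast equals the difference between the fold changes of the days against PBS. The labels match no PBS group to either day, so effects of NM, time and rat age cannot be told apart in it.

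Rab7a values were 296, 313 and 270 FPKM in PBS, 264, 211 and 237 at day 1 and 395, 358 and 335 at day 28. The groups did not overlap, with day 1 the lowest and day 28 the highest. The log2 fold change was 0.61 ± 0.15 (SE) between the days (adjusted p = 0.0227), with -0.31 ± 0.15 at day 1 and 0.31 ± 0.15 at day 28 against PBS (adjusted p = 0.236 and 0.245), neither of which passed. Rab5b values were 172, 151 and 124 FPKM in PBS, 114, 85.7 and 103 at day 1 and 168, 164 and 151 at day 28. Day 1 was the low group and the other 2 overlapped, with a log2 fold change of 0.68 ± 0.17 (SE) between the days (adjusted p = 0.0208) and -0.56 ± 0.17 at day 1 against PBS (adjusted p = 0.0541). The calls of Rab7a and Rab5b between the days both ended without NM1d library 1 or 2 or NM28d library 0 (adjusted p up to 0.0943 and 0.0907), and Rab5b passed at day 1 without PBS library 2 (adjusted p = 0.031), without NM28d library 1 (0.0427) or with library weights (0.0197).

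Rab2b stood at 10.08, 8.69 and 10.03 FPKM in PBS, 8.90, 6.78 and 10.99 at day 1 and 20.4, 14.3 and 12.7 at day 28, so that day 28 lay above the other groups. Its log2 fold change was 0.76 ± 0.22 (SE) between the days (adjusted p = 0.047) and 0.64 ± 0.22 at day 28 against PBS (adjusted p = 0.105). The call between the days passed in 8 of 20 alternatives and ended without any single PBS library, NM1d library 0 or 1 or NM28d library 0 (adjusted p up to 0.172). Rab25 stood at 3.09, 6.88 and 3.41 FPKM in PBS, 8.33, 9.44 and 5.88 at day 1 and 4.50, 0.665 and 0.922 at day 28. Day 1 lay above day 28 in every library and overlapped PBS, and the log2 fold change was -1.75 ± 0.42 (SE) between the days (adjusted p = 0.0191), a call that ended without NM1d library 0 or 1 or NM28d library 2 (adjusted p up to 0.0777). Of 14 alveolar epithelial markers tested, 12 (85.7%) were lower and 1 (7.14%) higher at day 28 than at day 1, against 6.88% and 4.75% of all genes. Of 4 airway epithelial markers tested, 1 was lower and 0 were higher. Epcam, an epithelial adhesion protein, stood at 2.25 to 3.04 FPKM in PBS, 6.35 to 7.06 at day 1 and 0 to 1.60 at day 28. Cdh1, E-cadherin, stood at 1.16 ± 0.37, 7.52 ± 1.34 and 0.66 ± 0.29 (SD, n = 3). The part of epithelial RNA in Rab25 was not tested.

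**Figure D3:**
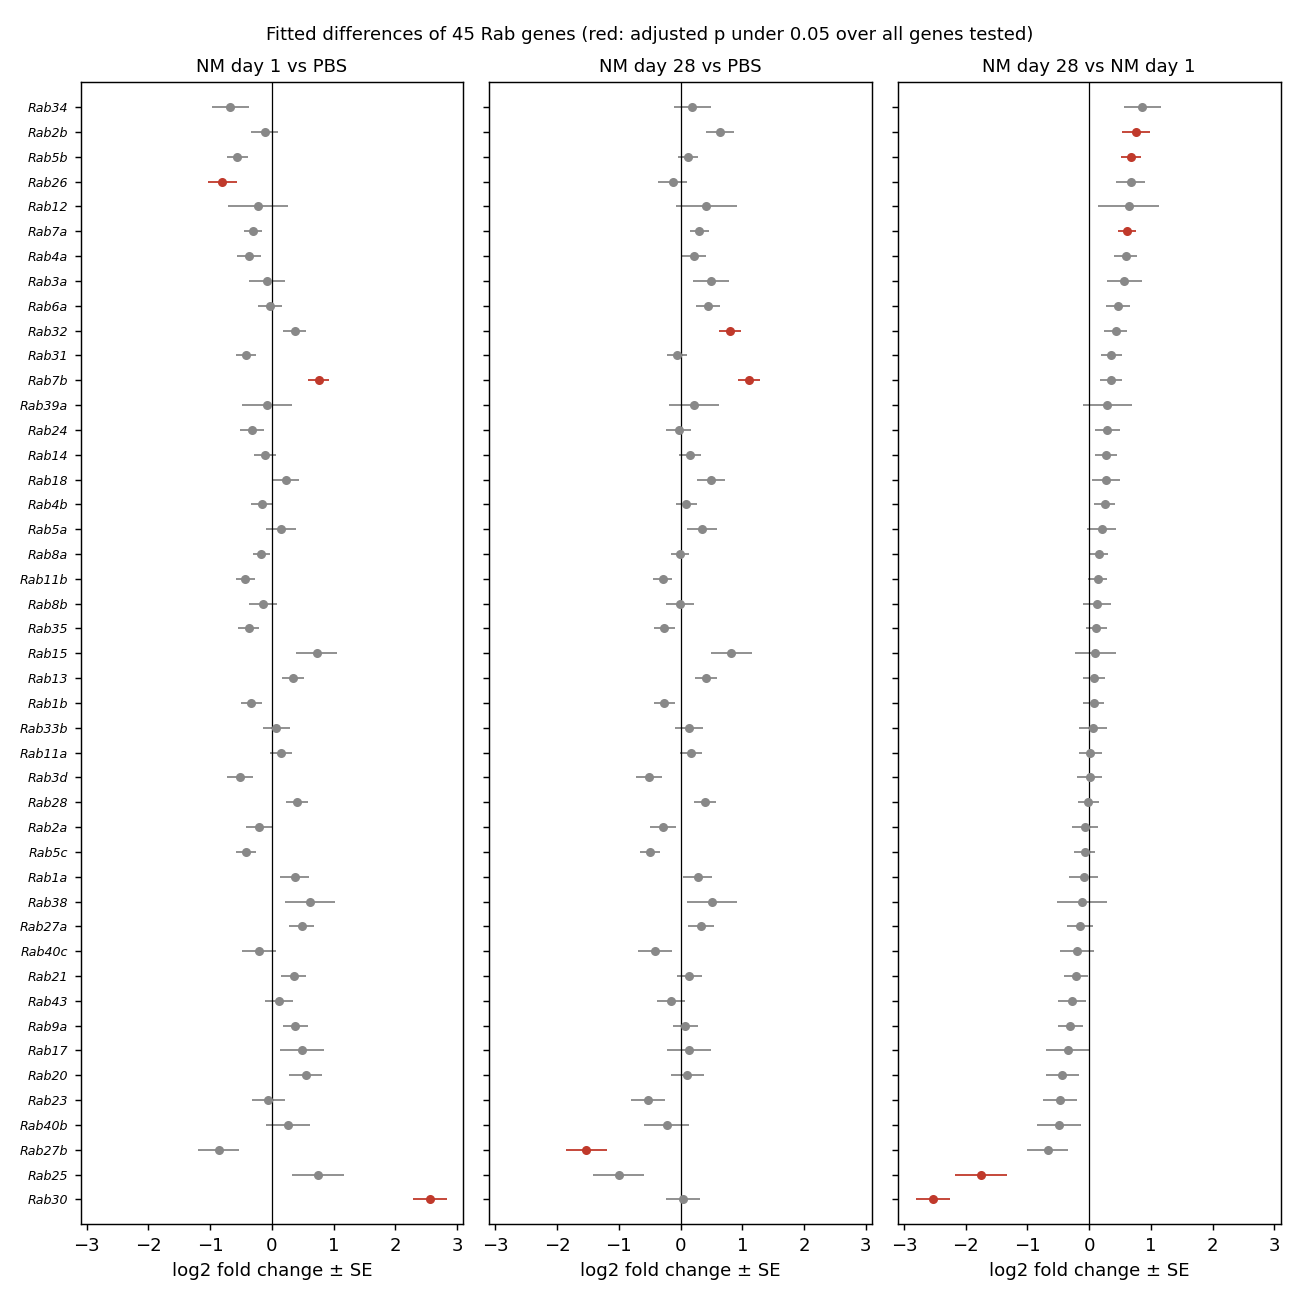
Fitted log2 fold change ± SE (horizontal axis) of 45 Rab genes (vertical axis, ordered by the difference between the days) in 3 comparisons; red points passed an adjusted p of 0.05 over all 9885 genes tested. There are 3 red points at day 1 against PBS, 3 at day 28 against PBS and 5 between the days, and PBS is shared by the left and middle panels.

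The sequences upstream of 4 of these genes are shown because Rab30 and Rab7b were called higher at day 1 and Rab7a and Rab5b were the abundant members called between the days. Each is the 250 bases before the RefSeq start site on the gene's strand in build GRCr8, at chr1:156215887-156216136 (+ strand) for Rab30, chr13:45673195-45673444 (+) for Rab7b, chr4:122064186-122064435 (-) for Rab7a and chr7:1712737-1712986 (-) for Rab5b. Capitals mark matches, on either strand, to the E-box core CACGTG, the AP-1 site TGANTCA, the cyclic AMP element TGACGTCA, the loose NF-kappaB pattern GGGNNNNNCC, the GC box GGGCGG or the STAT pattern TTCNNNGAA.
Rab30: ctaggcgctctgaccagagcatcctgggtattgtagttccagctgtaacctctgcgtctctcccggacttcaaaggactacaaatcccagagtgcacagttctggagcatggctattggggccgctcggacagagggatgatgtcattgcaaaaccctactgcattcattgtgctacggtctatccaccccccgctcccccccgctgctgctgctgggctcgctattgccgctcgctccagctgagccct
Rab7b: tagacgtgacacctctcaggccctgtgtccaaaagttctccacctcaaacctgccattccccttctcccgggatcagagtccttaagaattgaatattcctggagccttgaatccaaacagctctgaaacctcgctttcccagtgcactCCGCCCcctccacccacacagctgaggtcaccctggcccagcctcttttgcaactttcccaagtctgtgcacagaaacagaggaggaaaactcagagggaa
Rab7a: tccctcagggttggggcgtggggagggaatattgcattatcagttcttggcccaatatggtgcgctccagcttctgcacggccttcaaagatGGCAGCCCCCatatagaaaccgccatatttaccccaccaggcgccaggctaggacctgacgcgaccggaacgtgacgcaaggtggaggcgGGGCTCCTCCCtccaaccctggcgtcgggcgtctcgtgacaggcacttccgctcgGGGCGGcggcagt
Rab5b: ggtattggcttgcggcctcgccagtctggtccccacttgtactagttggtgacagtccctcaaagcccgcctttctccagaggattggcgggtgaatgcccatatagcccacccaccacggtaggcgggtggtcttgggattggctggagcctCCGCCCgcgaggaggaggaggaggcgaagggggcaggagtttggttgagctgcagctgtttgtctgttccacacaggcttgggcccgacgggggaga
The Rab30 window held none of these letters. Rab7b and Rab5b held a GC box, its first base at -101 and -97 from the start site, and Rab7a a GC box at -13 and 3 matches to the NF-kappaB pattern at -158, -68 and -67, the last pair overlapping each other. Of the 53 members 44 matched a promoter in the table. A GC box was found in 34 of the 44 (77.3%) and in 32.4% of all 27457 promoters, and the NF-kappaB pattern, which can overlap a GC box, in 30 (68.2%) and 43.5%. The E-box core stood in 3 of 44 (6.82%) against 5.79%, the AP-1 site in 4 (9.09%) against 6.36%, the cyclic AMP element in 1 (2.27%) against 1.70% and the STAT pattern in 2 (4.55%) against 7.52%. Median GC content was 63.0% over the members' windows and 52.0% over all windows. A match describes letters, not a bound site.

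In any of the 3 comparisons 9 of 45 members (20%) were called, against 19.6% of all genes tested. Among early endosome and phagosome Rabs 1 of 7 members tested passed in any comparison, Rab5b. Rab5c stood at 303, 247 and 210 FPKM in PBS, 183, 178 and 199 at day 1 and 195, 167 and 170 at day 28, so PBS lay above both NM groups. Its log2 fold changes of -0.42 ± 0.16 at day 1 and -0.50 ± 0.16 at day 28 (standard error, adjusted p = 0.127 and 0.0874) did not pass, though day 28 did without PBS library 2 or with library weights (adjusted p as low as 0.0418). Rab5a, the best-studied early endosome Rab, stood at 21.5, 15.4 and 19.2 FPKM in PBS, 31.5, 15.9 and 17.2 at day 1 and 21.6, 23.6 and 26.5 at day 28, with no call (adjusted p = 0.763 and 0.421 against PBS). Rab20, which acts in phagosome maturation, stood at 22.9, 21.8 and 15.9 FPKM in PBS, 36.2, 33.6 and 21.3 at day 1 and 26.2, 14.5 and 26.5 at day 28. The groups overlapped, and its day 1 log2 fold change of 0.55 ± 0.27 (SE) did not pass (adjusted p = 0.223). Rab31, which links the Golgi and endosomes, and Rab21, which moves integrins, had log2 fold changes at day 1 of -0.42 ± 0.16 and 0.35 ± 0.20 (standard error, adjusted p = 0.131 and 0.3). Rab17, an epithelial Rab, stayed between 0 and 1.49 FPKM.

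Late endosome and lysosome Rabs, 5 tested, included Rab7a and Rab7b as the called members. Rab34, needed for phagosome maturation in macrophages and for cilia, stood at 12.3, 6.03 and 7.70 FPKM in PBS, 6.19, 2.90 and 6.11 at day 1 and 9.15, 8.11 and 11.98 at day 28. Day 28 lay above day 1 in every library, with a log2 fold change of 0.86 ± 0.30 (standard error, adjusted p = 0.0836) that passed with the replicate block or library weights (adjusted p as low as 0.0416). Rab24, an autophagy Rab, had means of 123, 98.4 and 123 FPKM, and Rab9a, which returns receptors from late endosomes to the Golgi, of 25.6, 33.0 and 26.8 FPKM in PBS, day 1 and day 28, neither called.

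Recycling and plasma membrane Rabs, 12 tested, held 1 call, Rab25. Rab11a, the main Rab of the recycling endosome, stood at 76.1, 61.7 and 46.3 FPKM in PBS, 65.7, 70.9 and 64.3 at day 1 and 70.6, 71.7 and 62.0 at day 28, with log2 fold changes of 0.15 ± 0.18 and 0.17 ± 0.18 (standard error, adjusted p = 0.648 and 0.607 against PBS). Its paralogue Rab11b had a mean of 91.6 ± 15.3 FPKM in PBS, 67.3 ± 6.11 at day 1 and 74.0 ± 0.41 at day 28 (SD, n = 3), with PBS above both NM groups and no call (adjusted p = 0.104 and 0.285). Rab4a, of fast recycling, had a log2 fold change of 0.59 ± 0.19 (SE) between the days (adjusted p = 0.0686), and passed without NM1d library 2 (adjusted p = 0.0414). Rab35, which also serves fast recycling, had a log2 fold change of -0.38 ± 0.17 at day 1, Rab13, known from tight junctions, one of 0.41 ± 0.18 at day 28 and Rab15 one of 0.82 ± 0.33 at day 28 (standard error, adjusted p = 0.194, 0.183 and 0.156). Rab12 varied widely at day 28, at 15.7, 7.22 and 35.4 FPKM.

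Of 10 ER and Golgi Rabs tested, Rab30 and Rab2b were called. Rab18, which sits on the ER and on lipid droplets, stood at 40.8, 25.04 and 23.99 FPKM in PBS, 42.6, 26.6 and 34.8 at day 1 and 41.0, 41.5 and 41.5 at day 28. Day 28 lay above PBS by a small margin over replicate 0, and its log2 fold change of 0.49 ± 0.22 (SE) did not pass (adjusted p = 0.198). Rab6a, of Golgi retrograde traffic, had a log2 fold change of 0.44 ± 0.20 at day 28 (standard error, adjusted p = 0.192), while the ER-to-Golgi Rabs Rab1a, Rab1b and Rab2a had 0.28 ± 0.23, -0.26 ± 0.17 and -0.28 ± 0.21 (adjusted p = 0.516, 0.386 and 0.459). Rab33b, Rab39a and Rab43 lay between -0.16 and 0.22 at day 28 against PBS. In regulated secretion, 5 tested, Rab3d, a granule Rab, stood at 18.9 ± 1.124 FPKM in PBS against 13.1 ± 3.002 at day 1 and 13.1 ± 2.56 at day 28 (SD, n = 3), with no overlap and no call (adjusted p = 0.137 and 0.155), and Rab3a, the synaptic vesicle Rab, had a log2 fold change of 0.57 ± 0.29 between the days (standard error, adjusted p = 0.228) that passed without NM28d library 1 (adjusted p = 0.0377). Of Rab23, Rab28, Rab40b and Rab40c, which serve cilia or ubiquitin ligases, limma made 0 calls, and 1 reached an unadjusted p under 0.05 on each day against PBS (Rab28 on both days, log2 fold change 0.40 ± 0.18 and 0.39 ± 0.18, SE).

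Among regulators and effectors of Rabs, calls were read beside the shares of all genes called, which were 9.86% at day 1, 7.04% at day 28 and 11.6% between the days. In the list of prenylation, GDI and related factors, 1 of 8 tested (12.5%) was lower at day 1, Rabac1, a membrane protein that binds prenylated Rabs. It stood at 674 ± 101 FPKM in PBS, 322 ± 84.9 at day 1 and 695 ± 85.4 at day 28 (SD, n = 3), with log2 fold changes of -1.08 ± 0.21 at day 1 (standard error, adjusted p = 0.00782; 0.0513 without NM1d library 0) and 1.13 ± 0.21 between the days (adjusted p = 0.00496). Limma called 0 of the 8 at day 28 against PBS, where 2 reached an unadjusted p under 0.05. Median log2 fold changes of the list were 0.03 at day 1 and 0.26 at day 28.

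Of 28 exchange factors tested 0 were higher and 3 (10.7%) lower at day 1, against 5.28% and 4.58% of all genes. They were Hps1, part of the exchange factor of Rab32 and Rab38, Trappc9, a TRAPP subunit, and Mon1a, part of the exchange factor of Rab7, with log2 fold changes of -0.68 ± 0.15, -0.64 ± 0.18 and -0.90 ± 0.25 (standard error, adjusted p = 0.0184, 0.0403 and 0.0434). At day 28 Trappc1, another TRAPP subunit, and Dennd6a were higher than PBS (7.14% of 28, against 3.07% of all genes; 0.82 ± 0.18 and 0.69 ± 0.18, standard error, adjusted p = 0.0206 and 0.0366), and Trappc1 was also higher than at day 1 (0.97 ± 0.18, standard error, adjusted p = 0.00604), a call that passed in 20 of 20 alternatives. The call of Hps1 ended without PBS 0, PBS 1, NM1d 0 or NM1d 1, that of Mon1a without PBS 1, PBS 2, NM1d 0, NM1d 1 or NM28d 0, and that of Trappc9 without any library other than NM1d 1 and NM28d 1. Both Mon1a and Trappc9 also lost their calls under median-of-ratios scaling, quantile normalisation and single transcript rows, Mon1a without a filter, and Trappc9 with the replicate block or the 6 libraries compared (11 and 8 of 20 alternatives passed). At day 28 the call of Trappc1 ended without PBS 1, PBS 2 or NM28d 2, and that of Dennd6a without any library other than NM28d 2, without a filter, with the replicate block or with the 6 libraries compared (9 of 20 passed).

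Among 21 GTPase-activating proteins tested 2 were higher and 1 lower at day 1 (14.3% called, against 9.86% of all genes). Tbc1d8 rose from 4.28 ± 0.29 to 10.2 ± 0.66 FPKM and Rabgap1l from 8.33 ± 1.66 to 19.5 ± 3.68 (SD, n = 3; adjusted p = 0.00557 and 0.0106), and Sgsm3 fell by 0.64 on the log2 scale (adjusted p = 0.039). Between the days Tbc1d8 and Rabgap1l were lower at day 28 (adjusted p = 0.0103 and 0.00415), and Tbc1d22b and Tbc1d25 were higher (adjusted p = 0.0317 and 0.0464). Both calls of Tbc1d8 and of Rabgap1l passed in 20 of 20 alternatives. The call of Sgsm3 ended without any library other than NM28d 0 and NM28d 1, that of Tbc1d22b without any library other than PBS 0, PBS 2 and NM28d 1, and that of Tbc1d25 without any library other than PBS 2. The replicate block ended all 3 of these calls, median-of-ratios scaling ended that of Sgsm3, and no filter, single transcript rows or the 6 libraries compared ended that of Tbc1d25 (11, 13 and 8 of 20 passed). Limma called 0 of the 21 at day 28 against PBS, where 0 reached an unadjusted p under 0.05.

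Of 39 effectors tested 1 was higher (2.56%, against 5.28% of all genes) and 4 lower (10.3%, against 4.58%) at day 1. Rab11fip4, a Rab11 effector, rose from 0.42 ± 0.30 to 2.51 ± 0.90 FPKM (SD, n = 3; adjusted p = 0.021); it passed the filter through the day 1 libraries alone and so had to differ. Rilp, the Rab7 effector that couples late endosomes to dynein, fell from 23.8 ± 4.599 to 13.8 ± 1.90 FPKM (adjusted p = 0.0322), and Mical1 and Bicd2, a Rab6 effector, fell by 0.72 and 0.74 on the log2 scale (adjusted p = 0.0253 and 0.0264). At day 28 Bicd2 and Optn, a Rab8 effector, were lower than PBS (-0.78 ± 0.18 and -0.53 ± 0.13, standard error, adjusted p = 0.0266 and 0.0343), and Rab11fip4 and Sytl1, a Rab27 effector, were lower than at day 1 (adjusted p = 0.0125 and 0.0391). Sytl1 was low throughout, at 0.3962 to 1.099 FPKM in PBS, 1.536 to 1.971 at day 1 and 0.1647 to 0.6371 at day 28. It passed the filter on low values mainly through day 1, where every library reached 1 FPKM, while none did at day 28. A lower level of Sytl1 at day 28 than at day 1 was thus partly built in, and its p-value is given with that limit. Median log2 fold changes of the effectors were -0.20 at day 1 and -0.09 at day 28, against -0.04 over all genes on both days. The call of Rab11fip4 at day 1 ended without any of PBS 0, PBS 1, NM1d 0 and NM1d 1, that of Rilp without any PBS or NM1d library, that of Mical1 without PBS 1, NM1d 0 or NM1d 1 and that of Bicd2 without PBS 1, PBS 2, NM1d 0 or NM1d 2. At day 28 the call of Bicd2 ended without PBS 1, PBS 2, NM28d 0 or NM28d 1 and that of Optn without any PBS library, NM1d 2, NM28d 0 or NM28d 2. Between the days Rab11fip4 ended without NM1d 1, and Sytl1 without any library other than PBS 0 and PBS 2. Quantile normalisation ended the calls of Mical1 at day 1, Optn at day 28 and Rab11fip4 and Sytl1 between the days, and a pseudocount of 0.1 those of Rab11fip4 at day 1 and Sytl1. The replicate block and the 6 libraries compared ended those of Optn and Sytl1, and single transcript rows those of Bicd2 on both days and Sytl1.

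Arf GTPases, a related family, held a few called genes. Of 24 Arf family GTPases tested, which also act on vesicles, 1 was higher and 1 lower at day 1 (8.33% called), 1 was higher at day 28 (4.17%) and 1 was higher and 1 lower between the days (8.33%), beside the shares of all genes given above. The difference between the Arf and Rab families was not tested.

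**Figure D4:**
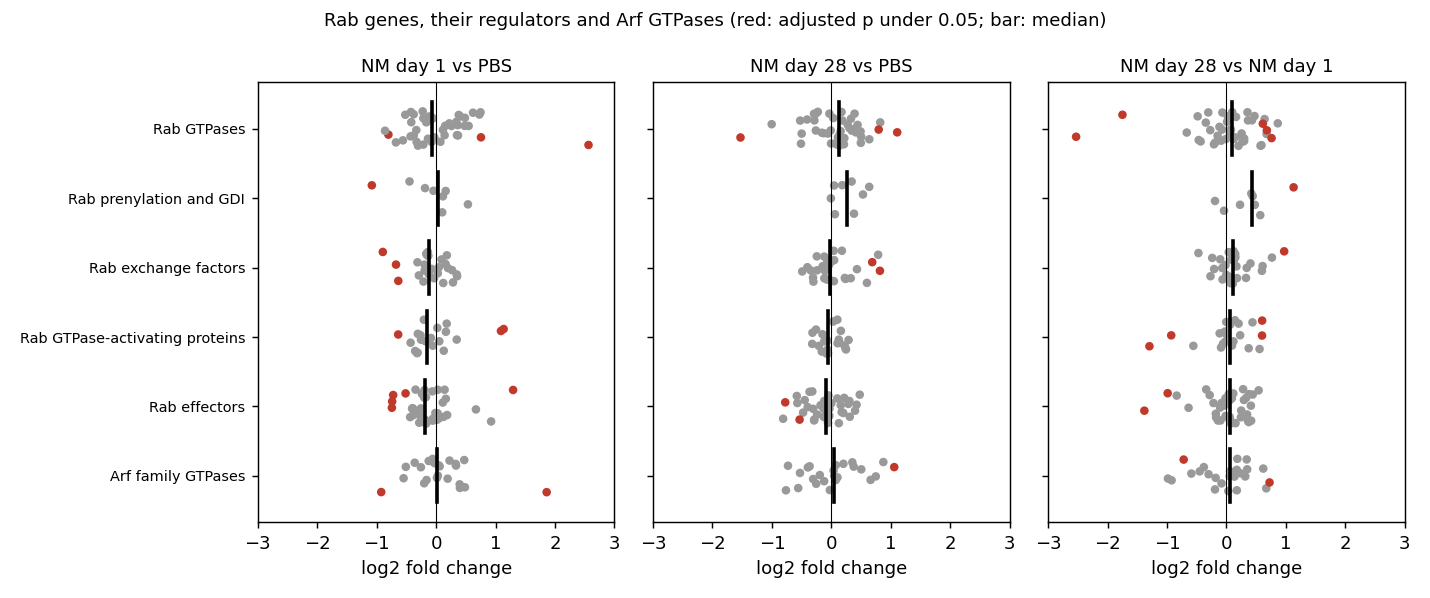
Fitted log2 fold change (horizontal axis) of each tested gene of the Rab family, of 4 lists of Rab regulators and effectors and of the Arf family (vertical axis) in 3 comparisons, with red for an adjusted p under 0.05 over all genes and a bar at the median of each list. Most points lie within 1 of 0, and the Rab30 point is the outermost of the Rab genes at day 1.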

How the data were processed

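RNA was measured in 9 libraries of alveolar macrophages. TopHat, Cuffdiff and build rn4 are named in the submitters' processing notes; tool versions, annotation, strandedness and multiple matches are not stated there. FPKM per RefSeq transcript were deposited by the authors (18197 rows). Upper quartiles of 19.12 to 19.65 FPKM were nearly equal between libraries. A RefSeq gene table of GRCr8 named 17189 rows (94.5%); FPKM of rows with 1 symbol were summed, which gave 17109 genes. Promoter sequences are RefSeq's, build GRCr8.

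The test was limma (version 3.58.1, R 4.3.3, eBayes with trend) on log2(FPKM + 1) of 9885 genes, with 3 group means over 9 libraries and Benjamini-Hochberg adjustment over all genes tested; called means an adjusted p under 0.05. The addition of 1 shrinks fold changes of low genes. A fall or rise is a difference in share of the library's RNA, since FPKM is relative. The test was tried on simulated data with 200 of 9885 genes changed. It called 4.48% of log2 changes of 0.5 against PBS on either day and 7.46% between the days. Of log2 changes of 1 it called 38.8% at day 1, 50.7% at day 28 and 59.7% between the days. A gene without a call can thus still differ. These rates depend on the number of genes changed, and each rests on a part of the 200. In the data 696 to 1150 genes were called per comparison, so the rates need not hold there. One gene list that was also drawn up is not reported here. The members, lists, motifs and alternatives were chosen with earlier results of these data known. Described in full were members called in any comparison, the 5 most abundant and Rab5a, Rab7a, Rab11a, Rab20, Rab27a, Rab32, Rab34 and Rab38, and up to 3 called genes per list; other members given values were picked with those values in view. The 20 alternatives changed the pseudocount (0.1 or 5), the filter (none, or 5 FPKM), the scaling (median-of-ratios or quantile), the unit tested (single transcript rows), the model (replicate block, fits of the 6 compared libraries, robust eBayes, weighted libraries) or left out 1 library. Other steps used pandas 2.3.3 and numpy 2.4.6 under Python 3.11.15, with plots by matplotlib 3.10.9.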

Additional observations from a re-analysis of the deposited data

Results flagged for a closer look

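Levels of 5 Rab genes after NM differed between the days by the contrast of day 28 with day 1 (limma, 3 libraries each). No PBS group was matched to either day, so effects of NM, time and rat age cannot be told apart here. The log2 fold change of day 28 against day 1 was -2.53 for Rab30, -1.75 for Rab25, 0.76 for Rab2b, 0.68 for Rab5b and 0.61 for Rab7a. Of these, Rab30 passed in 20 of 20 alternatives, Rab25, Rab5b and Rab7a in 17 each and Rab2b in 8. Rab30 passed the filter on low values through the day 1 libraries alone, so that it had to differ between the days. With groups of 3 no single library was tested as an outlier.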

How the results depend on the processing

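No Rab gene called in any fit changed direction. Rab genes lower at day 1 against PBS numbered 1, but 0 at a pseudocount of 0.1, without a filter, with a filter of 5 FPKM, after median-of-ratios scaling, with single transcript rows, with the replicate block or with only the 6 libraries compared, 2 after quantile normalisation and 3 with library weights. At day 28 against PBS the 1 lower gene became 0 with a filter of 5 FPKM, where Rab27b was not tested, and 2 with library weights. The 3 genes higher at day 28 than at day 1 became 5 with library weights. With each library left out in turn, the 2 higher and 1 lower at day 1 ran from 1 to 2 and from 0 to 2, the 2 higher and 1 lower at day 28 from 1 to 2 and from 1 to 1, and the 3 higher and 2 lower between the days from 0 to 4 and from 1 to 2; 0 were higher between the days without NM1d library 1 or NM28d library 0. The 1 lower gene at day 28 was not always Rab27b. It was Rab5c without PBS library 2 and Rab25 without NM28d library 0 (limma, adjusted p = 0.0246 for Rab25). Over all genes 975 calls at day 1 ran from 318 to 1374, 696 at day 28 from 271 to 793 and 1150 between the days from 633 to 1403. Counts were lower by over 1.5 times at day 1 without any of PBS 0, PBS 1, NM1d 0 and NM1d 1, at day 28 without any of PBS 0, PBS 1, NM28d 0 and NM28d 2, and between the days without any of NM1d 0, NM1d 1 and NM28d 0, where fewer libraries stood for a group. Day 28 gave 433 calls with only the 6 libraries compared and 1155 with library weights, and the days differed in 2004 genes with library weights; the cause was not tested. Library weights did not reach their convergence tolerance. Same-numbered libraries deviated from their group means with correlations from -0.104 to 0.196, above 0.1 in 3 of 9 pairs. They correlated best with their own number in 7 of 18 tries. With groups this small the check cannot decide whether same-numbered libraries were processed together, which the labels do not state. The replicate block ended the calls of Rab26 at day 1 and Rab2b between the days and added Rab34 between the days. Of the named regulators and effectors it ended the calls of Trappc9 and Sgsm3 at day 1, Dennd6a and Optn at day 28 and Tbc1d22b, Tbc1d25 and Sytl1 between the days. Absolute depth is unknown, which limits the members under 5 FPKM most.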

Other observations

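Ratios between paralogues within a library do not depend on scaling between libraries. They were taken, after the values were known, for the 11 pairs of tested members that share a number and were above 0 in every library; the 3 Rab5 pairs share genes. With 3 libraries a group the smallest two-sided p of an exact permutation test is 0.1, and no ratio was tested.

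Rab7a was 13.6, 20.9 and 15.0 times the level of Rab7b in PBS, 8.52, 6.48 and 7.95 times at day 1 and 9.13, 10.3 and 7.87 times at day 28. Both NM groups lay below PBS and overlapped each other. Rab5b was 0.569, 0.612 and 0.591 of Rab5c in PBS, 0.622, 0.482 and 0.517 at day 1 and 0.859, 0.982 and 0.891 at day 28, where all 3 libraries were above the other 6. Rab11a was 0.707, 0.685 and 0.601 of Rab11b in PBS, 1.04, 1.1 and 0.865 at day 1 and 0.957, 0.963 and 0.84 at day 28, with PBS below both NM groups. Rab2a was 5.66, 4.44 and 6.43 times Rab2b at day 28, below the other groups, which ran from 8.25 to 13. The ratio of Rab8a to Rab8b overlapped in all comparisons, as did those of Rab1a to Rab1b and Rab40b to Rab40c. Of the 11 pairs, the groups did not overlap for 4 at day 1 against PBS, 6 at day 28 against PBS and 3 between the days. For single genes the shares without overlap were 33.3%, 27.1% and 30.8% of all genes tested. No share was taken over other gene pairs, so these counts are not read further. The pairs given values here were picked with those values in view.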
